A study of Mus musculus with 8 samples.

Results

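The 32 genes described here mark the blood vessels of the mouse brain: 22 are used as markers of endothelial cells and 10 as markers of mural cells, which are pericytes and vascular smooth muscle cells. They were chosen by name, with earlier results of these data known, and all 32 were found among the 15978 rows of the authors' deposited table by the RefSeq transcript accessions that name its rows. The study sequenced brain RNA of 5 male mice that expressed a human C9ORF72 bacterial artificial chromosome with 500 G4C2 repeats, called C9-BAC here, and of 3 male wild-type mice. Both genotypes shared a mixed SJL/Bl6 background, and the labels give neither the age of the mice, nor the brain region, nor the expression pattern of the transgene. The comparison asks how the transgene alters the brain transcriptome. Libraries were strand-specific and made from total RNA without poly(A) selection, per the labels' protocols. The table gives 1 mean normalized count per gene over all mice and 1 fold change between the genotypes, so values of single mice are not analysed here. Each label is taken as 1 mouse; if several came from 1 animal, the p-values reflect technical spread among the samples at hand.

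Brain endothelial cells are sealed to each other by tight junctions and carry glucose, lipids and drugs across the blood-brain barrier through dedicated transporters. Their growth and quiescence are set by VEGF, angiopoietin and TGF-beta receptors. Pericytes wrap the capillaries and depend on PDGF-B from the endothelium, while smooth muscle cells ring the arterioles and contract. In bulk brain RNA these cells contribute a small share of the transcripts, and fewer vascular cells cannot be told apart from less vascular RNA per cell.

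No vascular gene passed the test between C9-BAC and wild-type brain in the authors' deposited table: 0 of 32 members reached a DESeq2 adjusted p of 0.05, and 0 of 15944 rows with a p-value did so (0% of the table). At an unadjusted p under 0.05 there were again 0 members, beside 239 rows of the whole table (1.50%), and the smallest p among the members was 0.0954, for Pecam1. Uniform p-values would put a share of 0.05 of all rows there, so low p-values were rare over the whole table. The 0 of 32 therefore says little about the members in particular. The members lay close to 0, as did most rows, with log2 fold changes (log2FC) of -0.047 to 0.17 in the authors' deposited table. Within 0.1 of 0 were 26 of 32 members and 13198 of all 15978 rows, so this closeness is not particular to the members. Of the members, 25 had a positive and 7 a negative log2FC, with a median of 0.052, while 47.4% of all rows were positive, 52.6% were negative and their median was -0.0044. The surplus of positive members was among the results known when the genes were chosen, so these counts are a description. The numerator of these fold changes is not stated, so every sign is given as deposited and is not a statement of higher or lower expression in C9-BAC mice.

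The vascular transcripts were detected. Mean normalized counts, called mean counts below, ran from 9.97 for Higd1b to 4185 for Bsg in the authors' deposited table, with a median of 208.5 beside 170.8 for all rows. Of the 32 members, 31 had a mean count of at least 10 and 29 of at least 50. Together the members held 0.143% of the sum of all mean counts. This share includes Bsg at 4185 and Tjp1 at 1472, which other cells also make, so it is not that of vessels alone. The neuronal markers expected in brain were present, and in the authors' deposited table all 9 had mean counts from 1588 upwards.

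Levels can be compared between genes per length of transcript, as mean count per kb. In this unit the median was 63.8 for the endothelial and 33.8 for the mural genes, against 62.6 for all rows. Bsg stood far above the other members at 3003 per kb, and the next were the pericyte gene Vtn (337) and the endothelial genes Ly6c1 (298) and Slc2a1 (259). The lowest levels per kb were those of Anpep (8.06), Sox17 (10.8) and Higd1b (13.6). Bsg and Tjp1 are also made by many cells outside the vessel wall, as background, so their levels are not those of vessels alone.

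**Figure D1:**
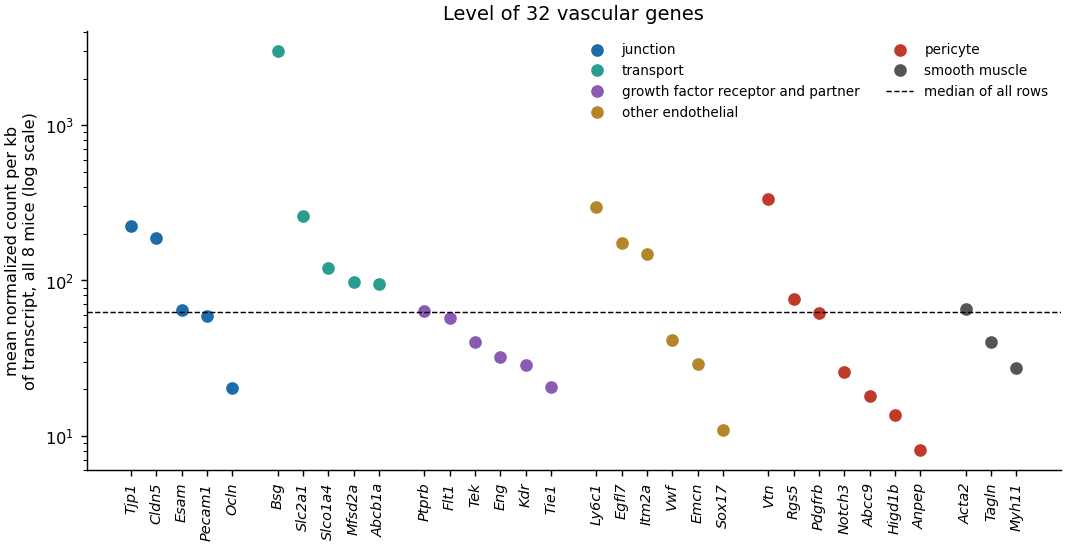
Level of each of the 32 vascular genes as mean count per kb of transcript over all 8 mice (log scale), grouped by role and ordered within each role, with the median of all rows as a dashed line. Bsg lies highest at 3003 per kb and Anpep lowest at 8.06, and 15 of the 32 genes lie above the median of all rows, 62.6.

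Reads shared with another gene can make member values uncertain. Of the 50-base stretches in the transcripts of Ly6c1, 28.0% also occur in transcripts of other genes that have rows, chiefly Ly6c2, and for Abcb1a the share was 17.0%, chiefly Abcb1b. Among the other 30 members the share with such genes was at most 0.655%. Counting genes without a row too, it was 10.5% for Egfl7, all of it shared with Gm20532, and 2.73% for Slco1a4, chiefly shared with Slco1a5. The coding sequences of Ly6c1 and Ly6c2, both on chromosome 15, differ at 9 of 393 positions and share a run of 188 identical bases. Those of Abcb1a and Abcb1b, both on chromosome 5, are 87.7% identical over 3840 aligned positions and share a run of 338. The stretches below, from GENCODE vM21 transcripts (GRCm38), hold the start of each shared run, 5′ to 3′ in the sense of the transcript, and the capital marks the only base that differs. They are shown because a read from within such a run cannot be assigned to 1 copy; the read length is not stated in the sources used here. They span coding bases 51 to 200 of both Ly6c genes, 1342 to 1491 of Abcb1a and 1351 to 1500 of Abcb1b.
Ly6c1: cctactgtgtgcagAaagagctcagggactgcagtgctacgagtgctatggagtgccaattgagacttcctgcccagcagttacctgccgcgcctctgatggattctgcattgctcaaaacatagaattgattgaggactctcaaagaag
Ly6c2: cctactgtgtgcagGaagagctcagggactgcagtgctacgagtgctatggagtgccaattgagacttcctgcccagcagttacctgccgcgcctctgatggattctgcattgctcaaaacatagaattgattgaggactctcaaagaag
Abcb1a: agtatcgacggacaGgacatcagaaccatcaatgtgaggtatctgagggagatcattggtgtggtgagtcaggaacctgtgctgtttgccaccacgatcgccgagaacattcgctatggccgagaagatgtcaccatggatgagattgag
Abcb1b: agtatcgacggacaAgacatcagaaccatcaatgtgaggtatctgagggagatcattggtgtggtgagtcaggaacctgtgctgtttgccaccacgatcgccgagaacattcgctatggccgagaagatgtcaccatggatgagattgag

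The copies were counted very unequally. Ly6c1 had a mean count of 234 in the authors' deposited table, while Ly6c2, a gene of monocytes, had 1.28 and a log2FC of -0.037 (p = 0.235). Abcb1a had a mean count of 472 in the authors' deposited table, while Abcb1b had 35.8 and a log2FC of -0.048 (p = 0.646). The sources used here do not say how reads that fit more than 1 copy were counted. For 4 members the RefSeq gene bounds overlap another row on the opposite strand: Tagln with Pcsk7, Eng with Fpgs, Abcb1a with Rundc3b and Higd1b with Eftud2, of which the last 2 pairs do not overlap in the GENCODE vM21 bounds. The log2FC values of those partners in the authors' deposited table were 0.013, 0.097, -0.063 and 0.096, and the sources used here do not say whether counting used the strand.

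Junction genes were positive throughout but small in size. Pecam1 encodes the adhesion molecule CD31 of endothelial cell contacts and lies on chromosome 11 at 106654213 to 106715281 (GRCm38). It had a mean count of 192 and a log2FC of 0.17 (standard error, SE, 0.10) in the authors' deposited table (unadjusted p = 0.0954, adjusted p = 0.9997 by DESeq2). This corresponds to a ratio of 1.13, with a 95% interval of 0.979 to 1.29, and 539 rows of the table had a smaller p. Cldn5, the main claudin of the blood-brain barrier, lies on chromosome 16 at 18776847 to 18778262 and had a mean count of 267 and a log2FC of 0.12 (SE 0.11, p = 0.259) in the authors' deposited table. The other 3 junction genes were nearer to 0. In the authors' deposited table the log2FC was 0.019 for Esam, an adhesion molecule of endothelial junctions, 0.016 for Ocln, which encodes occludin, and 0.0035 for Tjp1, which encodes the scaffold protein ZO-1. Those 3 had p-values of 0.862 to 0.974 in the authors' deposited table.

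Barrier transporter genes had 2 positive and 3 negative log2FC values, all 5 within 0.1 of 0, and a median of -0.0071 in the authors' deposited table. Slc2a1 encodes the glucose transporter GLUT1, and its log2FC was -0.0071 at a mean count of 844 in the authors' deposited table (p = 0.949). Abcb1a, whose reads can be shared with Abcb1b, encodes P-glycoprotein, the drug efflux pump, and had a log2FC of -0.0072 (SE 0.090, p = 0.936) in the authors' deposited table. Slco1a4, an organic anion transporter gene that can share reads with Slco1a5, had the lowest log2FC of the 32, -0.047 (SE 0.11, p = 0.656) in the authors' deposited table. Mfsd2a, whose product carries lysophospholipids with docosahexaenoic acid and limits transcytosis, had one of 0.056 in the authors' deposited table (p = 0.612). Bsg encodes basigin, the partner of monocarboxylate transporters, and its log2FC was 0.033 in the authors' deposited table (p = 0.762).

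Growth factor receptor genes had 5 positive and 1 negative log2FC values, and all 6 were within 0.1 of 0. Eng encodes endoglin, a TGF-beta co-receptor, and had a log2FC of 0.098 (SE 0.11) in the authors' deposited table (p = 0.370). The VEGF receptor genes Flt1 and Kdr had nearly equal values, 0.053 and 0.051 in the authors' deposited table (p = 0.616 and 0.630). Tek, the receptor gene for angiopoietins also called Tie2, had a log2FC of 4.6e-05 in the authors' deposited table (p = 0.9997). Its relative Tie1 was at -0.018 (p = 0.872), and Ptprb, which encodes the phosphatase VE-PTP that acts on Tie2, at 0.013 (p = 0.891), both in the authors' deposited table.

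The other endothelial genes had 5 positive and 1 negative log2FC values with a median of 0.055 in the authors' deposited table. Sox17, a transcription factor gene of arterial endothelium, had a mean count of 33.7 and a log2FC of 0.12 (SE 0.10, p = 0.247) in the authors' deposited table. Egfl7, which encodes a secreted endothelial protein and can share reads with Gm20532, had a log2FC of 0.063, Itm2a, a membrane protein gene, one of 0.058, and Vwf, the gene of von Willebrand factor, one of 0.052 in the authors' deposited table. Ly6c1, a surface antigen gene with reads that can be shared with Ly6c2, was at 0.028, and Emcn, the endomucin gene of capillary and venous endothelium, was the negative one at -0.040 in the authors' deposited table. No p-value in this group was below 0.247.

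Mural genes had 8 positive and 2 negative log2FC values with a median of 0.061 in the authors' deposited table. Among pericyte genes, Notch3, a receptor whose human gene is mutated in the small vessel disease CADASIL, had a log2FC of 0.11 (SE 0.11) in the authors' deposited table (p = 0.321). Pdgfrb, the receptor gene for PDGF-B, likewise had 0.11 (SE 0.099) in the authors' deposited table (p = 0.279), at a mean count of 336. Abcc9, a subunit gene of the pericyte ATP-sensitive potassium channel, had 0.098, Vtn (vitronectin) 0.066 and Anpep (aminopeptidase N, or CD13) 0.055 as log2FC values in the authors' deposited table. Higd1b, a pericyte marker gene with a mean count under 10, and Rgs5, a regulator of G protein signalling, were at -0.012 and -0.014 in the authors' deposited table.

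All 3 smooth muscle genes were positive and none passed. Myh11 encodes smooth muscle myosin heavy chain and lies on chromosome 16 at 14194527 to 14292188 (GRCm38). Its log2FC was 0.13 (SE 0.11) in the authors' deposited table (p = 0.229), the highest of the mural genes. Tagln, which encodes transgelin (SM22-alpha), had a log2FC of 0.053 (p = 0.607) and Acta2, the smooth muscle actin gene, one of 0.049 (p = 0.651) in the authors' deposited table.

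**Figure D2:**
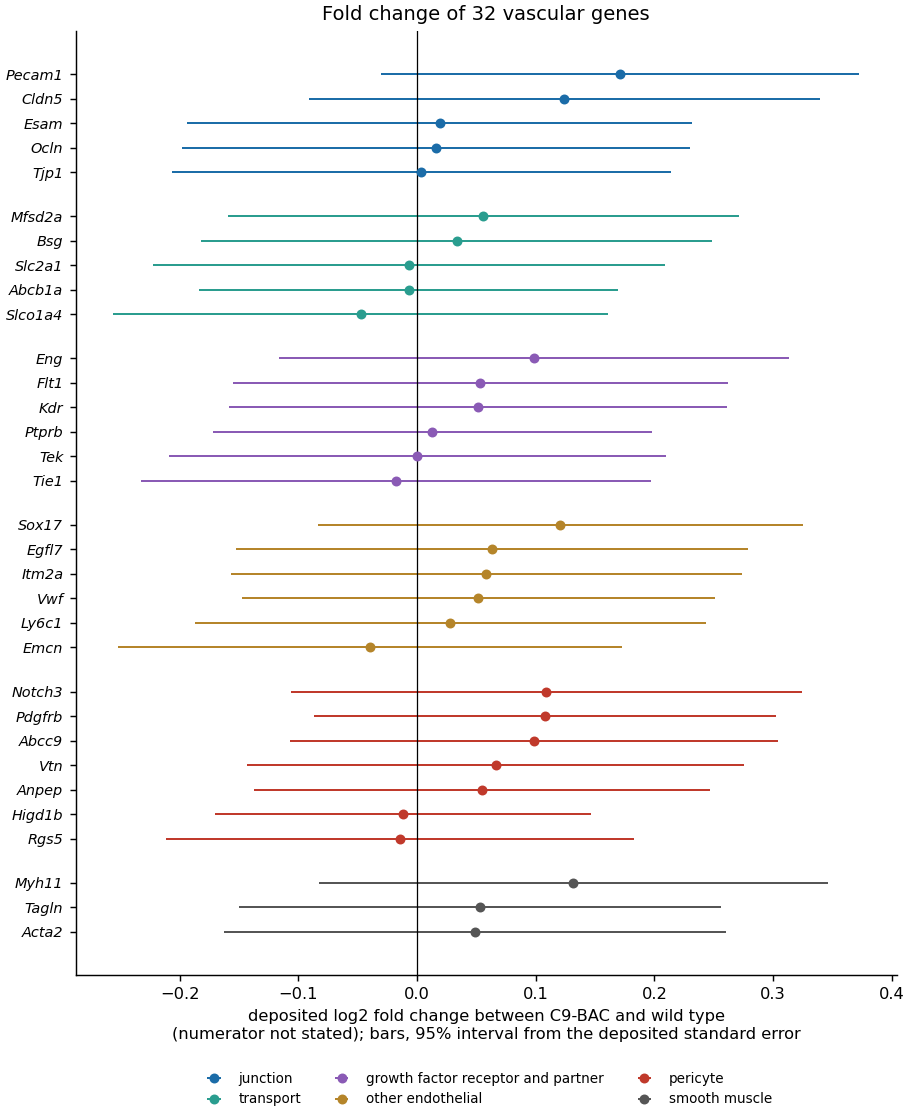
Log2FC between C9-BAC and wild-type brain for the 32 vascular genes as deposited, with the numerator not stated, grouped by role. Bars are 95% intervals from the deposited standard errors, and all 32 of them include 0.

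The standard errors set how these values can be read. Among the members they ran from 0.081 to 0.110 in the authors' deposited table, so an unadjusted p of 0.05 would have needed an absolute log2FC of 0.158 to 0.216, depending on the gene. No SE in the table was above 0.1100, and 27 of 32 members and 55.4% of all rows lay between 0.1 and that ceiling. Rows with mean counts under 10 had a median standard error of 0.0516, lower than the 0.107 of rows with counts of 50 to 500. An SE that falls with falling counts is the form given by a prior that shrinks fold changes toward 0, although the sources used here mention none. Under such a prior the log2FC values and intervals of the members would be too small, and they bound no difference.

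**Figure D3:**
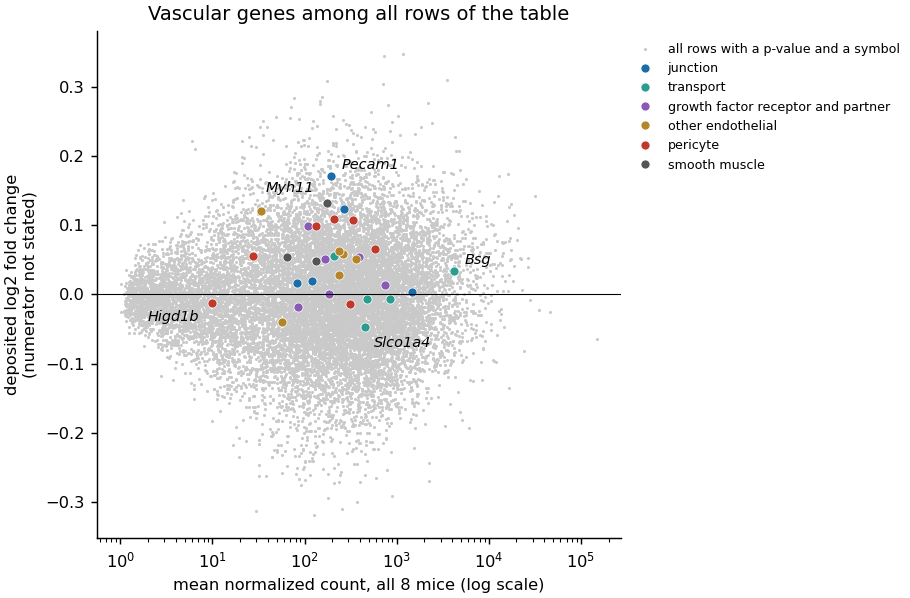
Log2FC as deposited (numerator not stated) against the mean count over all 8 mice (log scale), with all rows that have a p-value and a symbol in grey and the 32 vascular genes coloured by role. The members lie between -0.047 and 0.17, within the range of all rows, -0.32 to 0.35.

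Transcript GC content moved with the fold change across the whole table, and the members differed widely in it, from 40.3% for Slco1a4 to 60.5% for Cldn5, with a median of 52.4% beside 50.5% for all rows. Rows were divided by GC content into 5 bins of 3167. In the bin of lowest GC content 23.8% of rows had a positive log2FC, and of the 5 members there 2 were positive and 3 negative. In the bin of highest GC content 66.2% of rows were positive, as were 6 of 7 members. In the bins between, positive members numbered 4 of 5, 5 of 6 and 8 of 9, beside 36.7%, 50.3% and 60.7% of rows. With GC content and transcript length accounted for by a fit over the whole table, 28 of 32 members had a positive value. Over all rows with such a value, 7870 were positive and 7965 negative. The median was 0.040 for the members beside -0.00060 for all rows, and 0 members passed. These counts describe the list and are not a test of it.

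**Figure D4:**
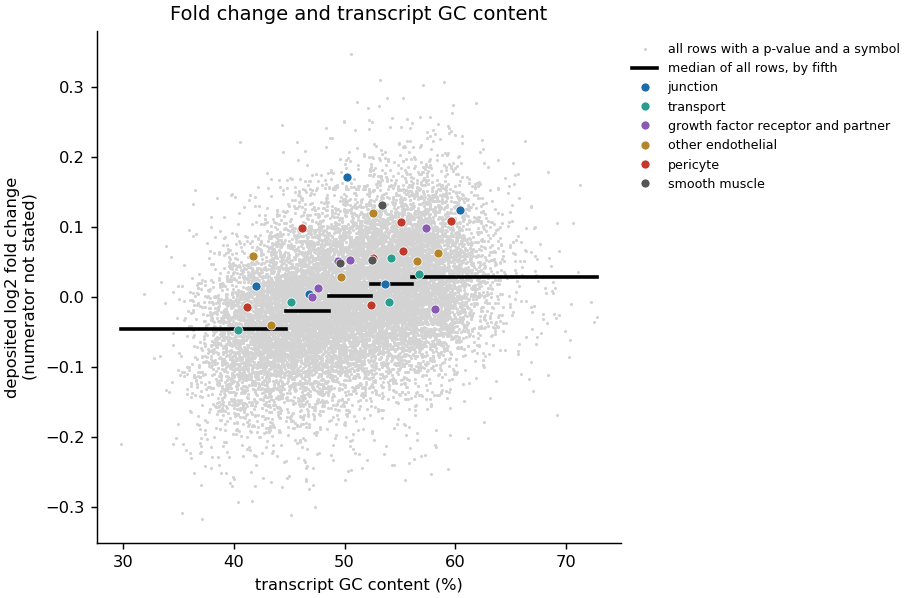
Log2FC as deposited (numerator not stated) against transcript GC content in percent, with all rows in grey, the 32 vascular genes coloured by role and black lines for the median of all rows in each of 5 bins of GC content. The median of all rows is -0.046 in the lowest and 0.029 in the highest bin, and the members in the lowest bin have a median of -0.014.

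Relatives of the members, most of which serve other cells, gave no call either. Of 41 relatives listed, 34 had rows in the authors' deposited table, 9 with positive and 25 with negative log2FC values, and their median was -0.027. The lowest in the authors' deposited table was Flt4, the VEGF receptor gene of lymphatic vessels, at -0.19 (p = 0.0753), and the highest was Notch4, an endothelial Notch receptor gene, at 0.16 (p = 0.139). Pdgfra, the PDGF receptor gene of oligodendrocyte progenitors, had a log2FC of -0.0042 in the authors' deposited table, beside 0.11 for Pdgfrb. The nonmuscle myosin genes Myh9 and Myh10 had log2FC values of -0.0043 and -0.0015 in the authors' deposited table, beside 0.13 for Myh11. Slc2a3, the neuronal glucose transporter gene, was at -0.094 and Slc2a1 at -0.0071 in the authors' deposited table. In these examples the member had the higher value, but other pairs went the other way. Acta1 was at 0.095 and Acta2 at 0.049, Emb at 0.090 and Bsg at 0.033, and Itm2c at 0.068 and Itm2a at 0.058. All these pairs were picked with their values known, and differences between relatives were not tested.

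Further vascular genes outside the 32 were more evenly divided. Of 158 listed, 155 had rows, 84 with positive and 71 with negative log2FC values (54.2% positive), and the median was 0.012 in the authors' deposited table. No further gene passed, and 4 of them (2.58%) had an unadjusted p under 0.05, beside 1.50% of all rows: Hey1, a Notch target gene (log2FC 0.20, p = 0.0321), Nrp2, a semaphorin and VEGF co-receptor gene (-0.21, p = 0.0449), Ndp, the gene of the Frizzled ligand norrin (-0.22, p = 0.0467), and Zic1, a transcription factor gene (-0.24, p = 0.0288), all in the authors' deposited table. Nrp2 and Zic1 are also expressed by neurons, as background. They are not the only further genes made outside the vessel wall, so these counts do not describe vascular cells alone. Which cells gave the reads was not tested.

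The further lists did not share 1 direction, and each is described with its genes of smallest p. Endothelial genes had 25 positive and 13 negative log2FC values in the authors' deposited table, led by Palmd (0.18, p = 0.0836) and Ly6e (0.15, p = 0.139). Barrier transport had 7 positive and 11 negative, led by the monocarboxylate transporter gene Slc16a1 (-0.21, p = 0.0509) and the caveolin gene Cav1 (-0.17, p = 0.121) in the authors' deposited table. Junction genes had 4 positive and 9 negative, led by the cingulin gene Cgn (-0.18, p = 0.0973) and Lsr, the gene of angulin-1 (0.12, p = 0.268), in the authors' deposited table. All 5 junction members were positive, whereas 9 of these 13 further junction genes were negative; the difference was not tested.

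Signalling, basement membrane, mural and activation genes were also mixed. VEGF, Notch, TGF-beta and Wnt signalling genes had 17 positive and 19 negative log2FC values and a median of -0.0044 in the authors' deposited table. Basement membrane genes had 11 positive and 6 negative, led by the integrin gene Itgb1 (-0.12, p = 0.184) and the perlecan gene Hspg2 (0.14, p = 0.190) in the authors' deposited table. Further mural genes had 18 positive and 8 negative, with Cspg4, the NG2 gene of pericytes and oligodendrocyte progenitors, at 0.19 (p = 0.0702) after Zic1 in the authors' deposited table. Endothelial activation genes had 2 positive and 5 negative, led by Icam1 (-0.12, p = 0.170) and Sele (-0.030, p = 0.331), both leukocyte adhesion genes, in the authors' deposited table. Sele was barely detected, with a mean count of 1.86.

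Markers of neighbouring cell types were read in the same way. Blood genes had 5 positive and 0 negative log2FC values with a median of 0.067 in the authors' deposited table, and their mean counts summed to 2099, led by the haemoglobin gene Hba-a2 at 1183, which has no p-value. Alas2 and Hbb-bt, also of red cells, were at 0.067 and 0.061 in the authors' deposited table (p = 0.120 and 0.147). Fibroblast and meningeal genes had 7 positive and 5 negative (median 0.037), led by Slc6a13 (0.15, p = 0.150) and Igf2 (0.12, p = 0.259) in the authors' deposited table. Perivascular macrophage genes had 5 positive and 2 negative (median 0.012), with Ms4a7 and Lyve1 at -0.030 and -0.041 in the authors' deposited table.

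Among the brain's other cells, neuronal markers were positive for 7 of 9 genes (median 0.055), with Thy1 at 0.21 (p = 0.0179) and Gad2 at -0.19 (p = 0.0631) in the authors' deposited table. Astrocyte markers had 4 positive and 7 negative (median -0.032), led by Aldh1l1 (0.093) and Slc1a3 (-0.069) in the authors' deposited table. Microglia had 4 positive and 4 negative, with Cx3cr1 at 0.083, and oligodendrocytes 2 positive and 5 negative, with Mog at 0.14 in the authors' deposited table. Choroid plexus and ependymal genes had 4 positive and 4 negative log2FC values and mean counts of 1.37 to 35.7, with Clic6 at -0.069 and Kl at 0.099 in the authors' deposited table. No gene of these lists passed over all rows. Sums of the lists in each genotype are not analysed here, and the part of other cell types in the values of the vascular genes was not tested.

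**Figure D5:**
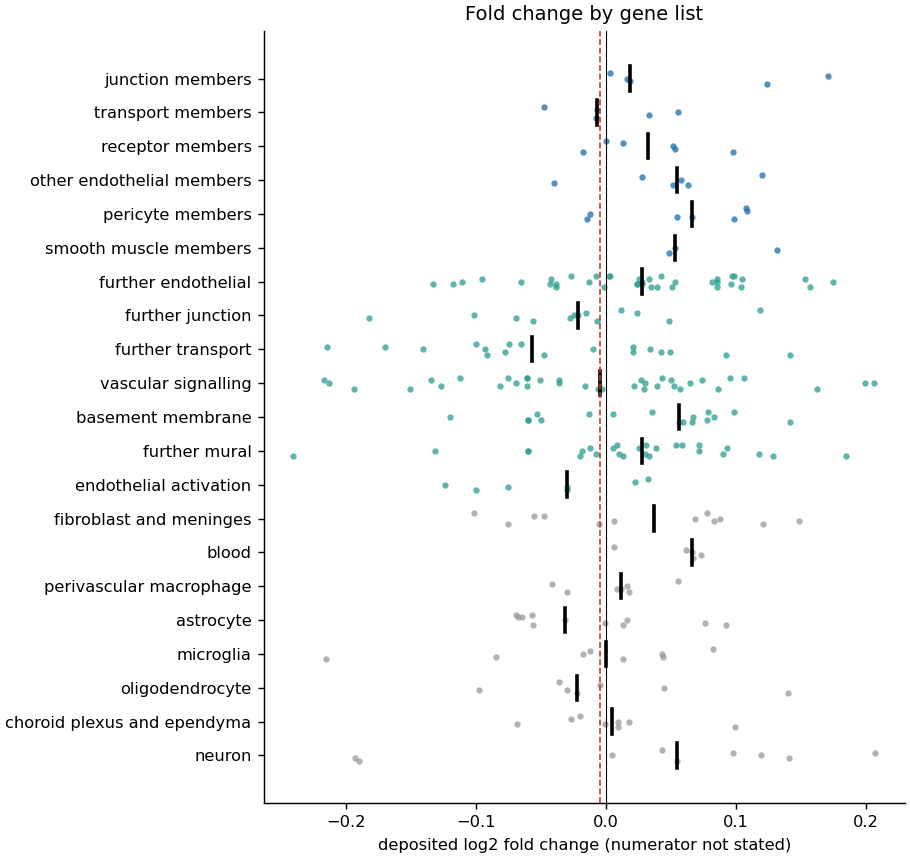
Log2FC as deposited (numerator not stated) of each gene in the lists, with vascular members in blue, further vascular lists in green and other cell types in grey. Black bars are list medians and the red dashed line is the median of all rows, -0.0044; the medians of the member roles lie between -0.0071 for transport and 0.066 for pericytes.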

How the data were processed

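The file analysed is 1 table of the authors' own comparison of 5 C9-BAC and 3 wild-type mouse brains. The submitters' processing notes list Bowtie2, Trimmomatic, DESeq2 and DESeq and the build mm10, with neither version nor role. The read counter, its annotation and any filter are not stated there. The deposited mean normalized count is a signal, the mean over samples of counts divided by size factors, per the file headers. Fold changes and standard errors were deposited as log2 values. The deposited statistic is a score, the fold change over its standard error (largest difference 8.3e-07). The deposited p-value is its two-sided normal p, and the adjusted p-value its Benjamini-Hochberg (BH) adjustment over 15944 rows (largest differences 8.8e-10 and 5.3e-12).

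RefSeq accessions in the row names gave symbols for 15857 rows through a GRCm38.p6 gene table and for 73 more through GENCODE vM21, leaving 48 without one. Coordinates are RefSeq gene bounds, 1-based. Transcript GC content and length are medians over the vM21 transcripts linked to a row (15869 rows). Python 3.11.15 with numpy 2.4.6, pandas 2.3.3 and scipy 1.17.1 was used, and the added statistics were tested on simulated data. Intervals of 95% were computed from the deposited standard errors. The sum of mean normalized counts, 9226666, is the only measure of depth, and that of single samples is unknown. The text names every member and every overlapping row, and from each further list the 2 genes of smallest p, every gene with an unadjusted p under 0.05 and, for blood, the most abundant gene; 2 genes that this rule selects are not reported here. Relatives are given by counts, with the lowest, the highest and examples picked with their values known. Members and lists were chosen with earlier results of these data known, and the shift of vascular genes to positive values was among those results. Alternatives were a count minimum of 10 or 50, centring on all rows or within 20 bins of abundance, GC content and length, and a rescaled statistic.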

Additional observations from a re-analysis of the deposited data

How the results depend on the processing

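With 0 rows and 0 members called as deposited, every alternative run also called 0 of the rows and 0 of the members: a mean normalized count of at least 10 or 50, centring on the median of all rows or by abundance, GC content and transcript length accounted for, and a statistic rescaled to its median and MAD. At an unadjusted p under 0.05, DESeq2 as deposited had 239 rows and 0 members. Adjusted p-values of members were 0.934 to 0.999 with the rescaled statistic and at least 0.9997 under the others. Positive members numbered 23 of 29 at a count minimum of 50 and 25 of 31 at one of 10. Under the other alternatives they numbered 25 to 28 of 32, against 25 of 32 as deposited. The median log2 fold change was 0.040 to 0.057 over all these alternatives, against 0.052 as deposited. Higd1b drops out at a count minimum of 10, and Anpep and Sox17 also at 50. Signs turned for 3 members, none of them called: Abcb1a to 0.0024 when centred by abundance, and to 0.0195 with GC content and length accounted for, where Slco1a4 came to 0.0093 and Rgs5 to 0.0372. Leaving out each replicate in turn was not run, because the table holds no values of single mice. No paired analysis was possible because the genotypes share no replicate number. The depth of single samples, the spread between mice and the unstated numerator limit all values.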
